A study of Mus musculus with 45 samples.

Results

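Of 45 Trp53-null mouse mammary tumours, 6 carried far more RNA of skeletal muscle than the other 39, and these 6 were compared with the rest. The 6 were picked by their expression. Each gene of a muscle panel (Acta1, Ckm, Tnnt3, Mylpf and Tnnc2) was centred on its mean across the 45 tumours, the 5 centred log2 values of a tumour were averaged into a muscle score, and the 6 highest scores formed the set. Each tumour was measured on an Affymetrix array of its own, and all values below are log2 expression, so that a difference of 1 is a doubling. Every tumour grew from mammary fragments of Trp53-null BALB/c donors placed in an inguinal fat pad; hosts were wild-type BALB/c females, 10 weeks old, after the hosts' own epithelium had been cleared at 3 weeks. Hosts had received a sham procedure (18 tumours) or silicon ions 3 days before transplantation. The doses were 10 cGy for 9 tumours, 30 cGy for 10 and 80 cGy for 8. Only the hosts were irradiated, and they carried intact Trp53, so host-derived cells in a tumour differ in genotype from the transplanted epithelium. Tumours were removed at 1 cm3 during 600 days of follow-up. The labels do not say for every pair of tumours whether they came from separate hosts, so p-values measure the spread between these samples.

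The inguinal mammary fat pad lies beneath the skin, over a thin sheet of skeletal muscle and the muscle of the abdominal wall and thigh. Skeletal muscle fibres are long fused cells filled with sarcomeres, in which myosin pulls on actin under the control of troponin and calcium. Fast fibres use the IIb, IIx and IIa myosins and burn glycogen, whereas slow fibres use the cardiac beta-myosin and rely on mitochondria. In bulk RNA such as this, more cells of a type and more RNA per cell cannot be told apart.

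The set held 30 cGy replicate 1, with a muscle score of 6.18, sham replicate 15 (5.60), sham replicate 14 (5.005), 80 cGy replicate 1 (3.55), 80 cGy replicate 6 (3.45) and sham replicate 3 (3.29). The next tumour, 80 cGy replicate 5, scored 1.67, which left a gap of 1.62 at the boundary. Scores of the 39 ran from -1.46 to 1.67 with a median of -1.06, and 33 of them were below 0. Acta1, the skeletal muscle actin, read 13.33, 13.07, 12.72, 11.32, 11.72 and 11.29 in the 6 tumours in that order, against a lowest value of 5.42, a median of 6.36 and a highest of 9.60 in the 39. Ckm, the muscle creatine kinase, lay between 10.58 and 13.27 in the 6 and between 4.95 and 9.55 in the 39. The groups did not overlap for any of the 5 score genes, which the choice of tumours made likely, and no test is given for them.

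**Figure D1:**
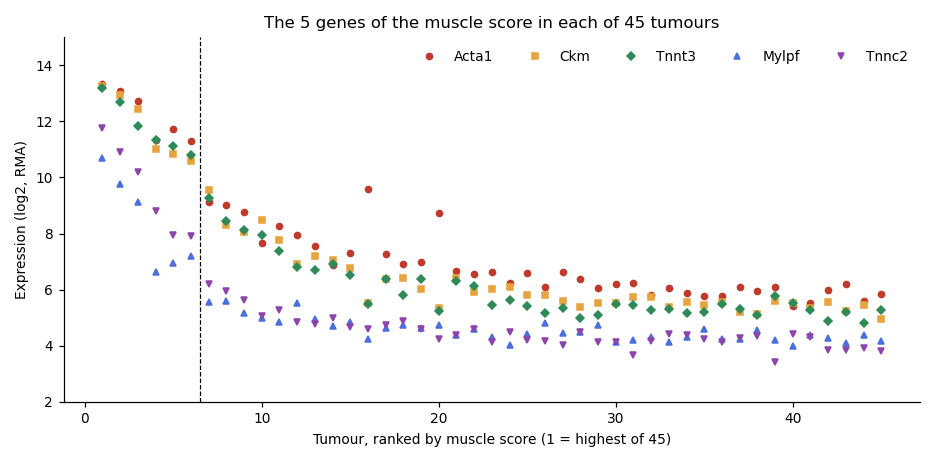
Log2 expression of the 5 score genes (y axis) in each of the 45 tumours, ranked by muscle score (x axis), with a dashed line after the 6th tumour. Acta1, Ckm and Tnnt3 exceed 10.5 in all 6 tumours left of the line, and values fall off gradually to its right.

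Sarcomere genes of fast fibres had the widest differences. Because the split was made on muscle RNA, genes that muscle fibres transcribe had to differ, and the 10 muscle lists (178 genes measured, 128 tested) are described without a test. Among 41 measured genes of the fast-fibre and shared sarcomere list, 31 were higher in every one of the 6 tumours than in any of the 39, which held for 0.501% of all genes tested. Over all genes, 1.57% were called higher and 0.146% lower. The 32 of these genes that passed the filter on low values had a median difference of 4.46, beside a median of -0.06 over all 12371 genes tested. Passing the filter could depend on the 6 tumours themselves, and 17 of the 32 passed only through them. The 3 tumours of the set with adipocyte scores under 2, described with the adipocyte genes, gave a median difference of 3.52 for the same list. Myh4, the fast IIb myosin, had the largest difference of the list, 6.57, with 10.96 to 13.15 in the 6 and a median of 4.82 in the 39. Myh1, the IIx myosin, was 10.28, 8.49, 4.74, 7.63, 8.74 and 8.01 in the 6, at most 5.34 in the 39, so sham replicate 14 lay within the range of the 39. The other contractile proteins followed the same pattern, with differences of 6.07 for Myot (myotilin), 5.91 for Myl1 (a myosin light chain) and 5.84 for Neb (nebulin).

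Differences were smaller for slow-fibre genes. Myh7, the slow myosin, read 7.08, 5.27, 4.21, 7.19, 6.42 and 5.53 in the 6 and 3.91 to 5.31 in the 39, and it did not pass the filter. Of 10 slow-fibre genes measured, 2 passed the filter, and the largest difference among the 10 was 1.82, in Myoz2, a Z-disc protein. Myh8, the neonatal myosin, stayed between 4.26 and 5.37 in the 6 tumours. Myf6, the regulator kept on in mature fibres, was 7.28 to 9.17 in the 6 against 4.07 to 7.17 in the 39. The satellite-cell gene Pax7 (4.76 to 5.05) and the myoblast regulators Myf5 (3.63 to 3.84) and Myog (3.62 to 3.95) remained at levels below the table median of 5.67.

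Machinery for calcium release and fuel use accompanied the sarcomere genes. Pvalb, the calcium buffer of fast fibres, was 8.53 to 12.83 in the 6 and 3.18 to 7.63 in the 39. Atp2a1, the fast-fibre calcium pump, differed by 6.30, Casq1, the calcium store protein, by 5.19, and Ryr1, the release channel, by 4.69. Pygm, which breaks down muscle glycogen, differed by 5.14 and Pgam2, the muscle phosphoglycerate mutase, by 4.14. The 17 measured genes of muscle-type mitochondrial isoforms had differences from -0.51 to 4.55. Among the 14 tested, 11 were positive and the median was 0.43. Cox8b and Cox6a2, the muscle forms of cytochrome oxidase subunits, differed by 4.55 and 3.27. The 36 tested genes of general oxidative phosphorylation had a median difference of 0.16, with none past the threshold. Of the 36, 33 were positive, against 39.1% of all genes outside the muscle lists. In the 3 tumours with adipocyte scores under 2 the medians were 0.24 and -0.05. Uqcrq, a complex III subunit, came closest at 0.39 ± 0.11 (SE; adjusted p = 0.0608). It passed when 80 cGy replicate 1, 6 or 8, sham replicate 2 or sham replicate 12 was left out, with adjusted p of 0.0265, 0.0204, 0.0475, 0.0430 and 0.0372.

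Outside the muscle lists, 12243 genes were tested with limma, and 123 rose in the 6 tumours (1.00% of those tested) while 18 fell (0.147%), at a Benjamini-Hochberg adjusted p below 0.05. At an unadjusted p below 0.05 there were 532 higher and 880 lower. The number that rose depended on single tumours, since it was 60 without 30 cGy replicate 1 and 77 without sham replicate 15. Of the 123 genes, 107 were in no list, and 35 passed the filter only through the 6 tumours. In 16 genes (0.131% of those tested) all 6 tumours exceeded all 39, and in no gene did all 6 lie below (0.00%). With the adipocyte score as a covariate 42 rose (0.343%), all among the 123, and none fell. With arrays weighted by their quality, 256 rose (2.09%) and 188 fell (1.54%).

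Many of these 16 genes are known from muscle fibres and, like the listed muscle genes, were bound to differ, so their p-values are not read. Hjv, hemojuvelin, a bone morphogenetic protein co-receptor made in muscle and liver, read 10.46, 9.86, 8.96, 7.15, 7.33 and 7.01 in the 6 and 3.63 to 5.36 in the 39. Klhl31, a kelch protein of muscle, was 6.45 to 10.78 against 3.49 to 5.35, and Asb12, a substrate adaptor of ubiquitin ligases, was 6.10 to 9.43 against 2.92 to 4.68. Both groups stood apart in each gene, with 30 cGy replicate 1 highest. Apobec2, a muscle member of the cytidine deaminase family, differed by 4.14, Eef1a2, the translation elongation factor form of muscle and neurons, by 3.84, and Asb11 by 3.34. Smaller differences were found for Txlnb (3.47), Mlip (2.92), Lrrc2 (2.88), Fbxo40, a muscle F-box protein (2.58), Trim54, a ubiquitin ligase of the sarcomere (2.12), and Dusp13 (2.08). Rtn2 (3.15), Camk2b (2.16), Fitm1 (2.78) and Mustn1 (2.75) completed the 16.

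The promoters of some of these genes are shown because they moved together with the score genes. CAGCTG, a palindrome that reads the same on both strands, is a form of the E-box bound by myogenic regulators. RefSeq promoter windows of 300 bases (250 before the gene start and 50 after, GRCm38.p6) were searched. CAGCTG occurred in 16.3% of 32851 windows, and 18.3% of 27025 genes had it in at least 1 window. It occurred in 3 of the 4 score genes that matched the table, and in 6 of the 10 matched genes (8 of 15 windows) among the 12 unlisted ones named first. Windows of a gene can overlap and share a copy, as those of Mlip did, and genes with more windows have more chances of a match. A motif like that of the muscle factor MEF2 (CTA, any 4 bases, then TAG, the same on both strands) was found in 4.23% of all genes, 0 of the 4 and 1 of the 10. Acta1 and Apobec2, both on the minus strand, carry 1 copy each in capitals, at chr8:123894726-123895025 and chr17:48432679-48432978, and the Fbxo40 window at chr16:36990418-36990717, also on the minus strand, carries 2.
Acta1: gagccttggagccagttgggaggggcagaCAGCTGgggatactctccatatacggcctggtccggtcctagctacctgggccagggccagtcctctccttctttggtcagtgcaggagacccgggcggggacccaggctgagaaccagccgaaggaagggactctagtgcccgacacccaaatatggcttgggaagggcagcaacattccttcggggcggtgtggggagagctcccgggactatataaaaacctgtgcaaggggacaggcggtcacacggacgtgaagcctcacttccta
Apobec2: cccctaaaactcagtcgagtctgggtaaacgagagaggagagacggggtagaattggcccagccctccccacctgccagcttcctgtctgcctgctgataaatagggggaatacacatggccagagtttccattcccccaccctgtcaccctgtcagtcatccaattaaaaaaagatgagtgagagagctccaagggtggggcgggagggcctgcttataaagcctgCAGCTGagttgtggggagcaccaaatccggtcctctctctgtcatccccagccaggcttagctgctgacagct
Fbxo40: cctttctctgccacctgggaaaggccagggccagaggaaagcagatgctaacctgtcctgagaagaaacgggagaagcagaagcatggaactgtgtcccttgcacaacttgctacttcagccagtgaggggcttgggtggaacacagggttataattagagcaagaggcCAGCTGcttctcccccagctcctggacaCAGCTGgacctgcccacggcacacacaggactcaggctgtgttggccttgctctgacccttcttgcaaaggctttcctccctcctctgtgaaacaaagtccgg
A match is a description of letters and not a site.

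**Figure D2:**
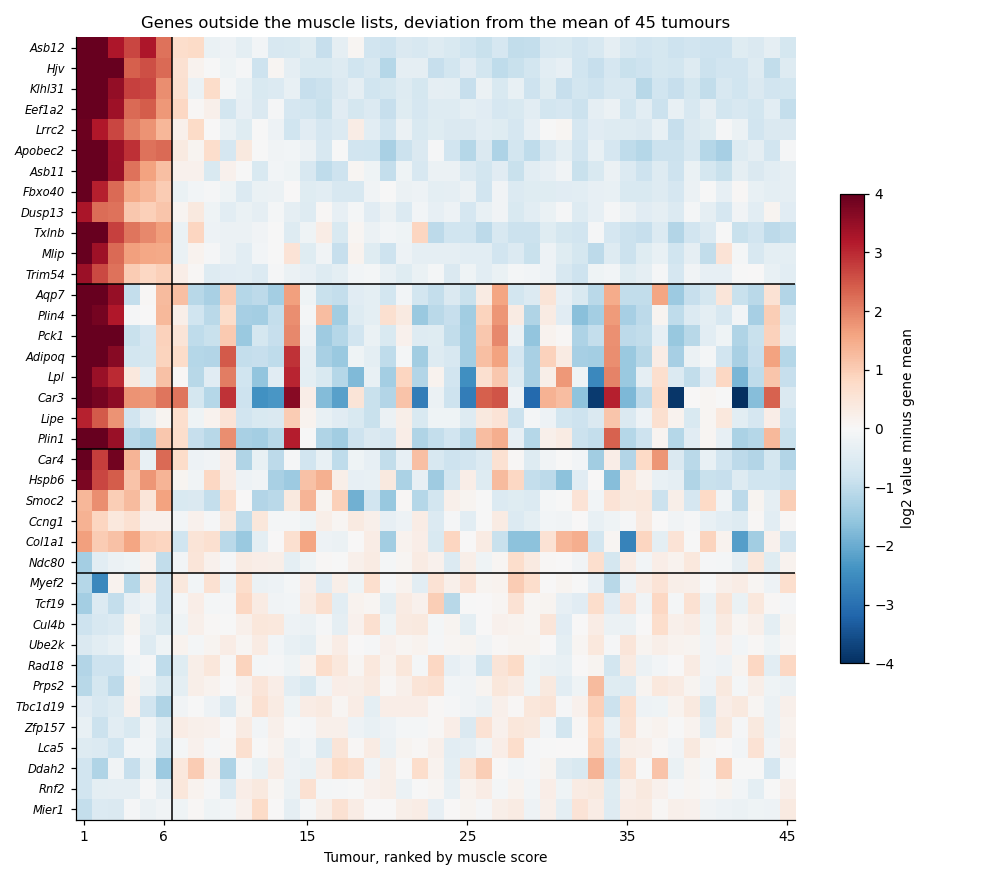
Deviation of the log2 value from each gene's mean over 45 tumours (colour) for genes outside the muscle lists (y axis), with tumours ranked by muscle score (x axis) and a vertical line after the 6th. From top to bottom the blocks hold 12 unlisted genes that were higher, 8 adipocyte genes, 6 single genes of other lists and 12 unlisted genes that were lower; within the 6, the adipocyte block is strongest in the 3 leftmost tumours.

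Of 27 tested genes on the denervation and atrophy list, 4 passed the threshold, all higher, where 1.00% of genes outside the muscle lists rose. That 1.00% itself includes genes known from muscle fibres, and the split favoured fibre genes on this list too. The 4 of 27 are therefore a description. Positive differences were found in 25 and the median difference was 0.22. Of the 27, 2 passed the filter only through the 6 tumours. Trim63, which encodes the ubiquitin ligase MuRF1 of muscle fibres, was 5.77 to 9.29 in the 6 and 3.49 to 5.88 in the 39. Ankrd2, a stretch-responsive sarcomere protein, was 6.09 to 8.29 against 4.57 to 7.28. Both are made by the fibres themselves, so their direction was set by the split. Fbxo32, which encodes the other well-known ligase of atrophy, atrogin-1, was 8.67 to 10.27 in the 6 and 6.26 to 11.14 in the 39 (difference 0.54, adjusted p = 0.734). Pdk4, a kinase that restrains pyruvate oxidation in muscle and fat, differed by 2.29 ± 0.50 (SE; adjusted p = 0.00328), and Nnmt, a methyltransferase, by 1.33 ± 0.33 (SE; adjusted p = 0.0141). Because Pdk4 is also a gene of muscle, the split favoured its rise, and its p-value is not read as a test. Pdk4 did not pass without 30 cGy replicate 1 (adjusted p = 0.0614). Nnmt did not pass without 30 cGy replicate 1, sham replicate 14 or sham replicate 15 (adjusted p = 0.217, 0.0846 and 0.109). With the adipocyte score as a covariate neither passed in limma (Nnmt 0.38, adjusted p = 0.9998; Pdk4 1.80, 0.293).

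Genes of white adipocytes were high in 3 of the 6 tumours. Of 21 tested genes, 8 rose over the whole set, where 1.00% of genes outside the muscle lists rose, and the median difference was 2.13. The 8 were Aqp7, Plin4, Pck1, Adipoq, Lpl, Car3, Lipe and Plin1. The split favoured any of them that muscle fibres also make, so the 8 of 21 are a description. Adipoq, the hormone adiponectin, read 11.33, 10.55 and 9.61 in 30 cGy replicate 1, sham replicate 15 and sham replicate 14, but 5.22, 5.26 and 6.85 in 80 cGy replicate 1, 80 cGy replicate 6 and sham replicate 3. Its range in the 39 was 4.47 to 8.85. Its difference of 2.51 ± 0.61 (SE) had an adjusted p of 0.0136, which became 0.259, 0.0990 and 0.147 without 30 cGy replicate 1, sham replicate 14 and sham replicate 15. Aqp7, the glycerol channel of fat cells, differed by 2.67 ± 0.52 (SE), Plin4, a lipid droplet protein, by 2.55 ± 0.50, and Pck1, a glycerol-forming enzyme in fat, by 2.93 ± 0.60. Their adjusted p-values were 0.00073, 0.00074 and 0.00127, and that of Pck1 was 0.0512 without 30 cGy replicate 1. With the 3 tumours of adipocyte score under 2 taken alone against the 39, a comparison chosen after seeing the data, 27 genes outside the muscle lists rose (0.221%) and all 27 were among the 123. The adipocyte score was the ground for picking these 3, so adipocyte genes are not read in that comparison. Unlisted genes known from fat cells rose over the whole set too, among them Ces1d, a lipid hydrolase (3.12), and Adig, adipogenin (1.77). Without 30 cGy replicate 1 their adjusted p-values were 0.0656 and 0.0826. Ucp1, the heat-producing protein of brown fat, was between 3.29 and 4.14 in the 6.

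**Figure D3:**
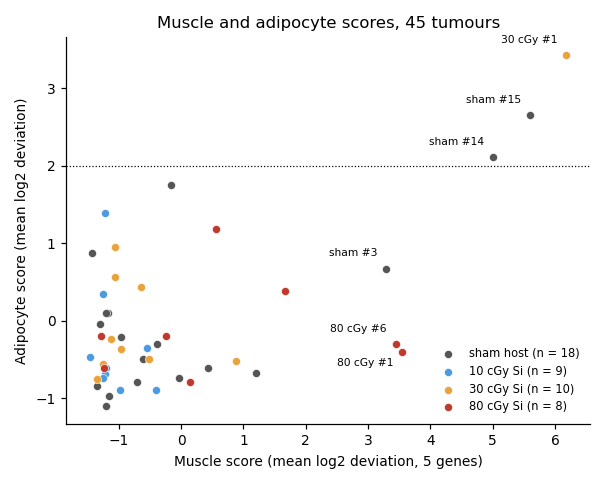
Muscle score (x axis) and adipocyte score (y axis, mean log2 deviation of adipocyte genes outside the muscle lists) of the 45 tumours, coloured by host group. The 3 tumours with muscle scores of 5 or more also have adipocyte scores above 2, marked by the dotted line, whereas none of the 39 reaches 2.

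Adipocyte scores were 3.43, 2.65 and 2.11 in the 3 tumours with the highest muscle scores. In the other 3 they were -0.41, -0.30 and 0.67. The 39 lay between -1.11 and 1.74 with a median of -0.46, which even the other 3 of the set exceeded.

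Most stromal genes had positive differences, and few passed, where 1.00% of all genes outside the muscle lists rose. All 22 tested genes of fibroblasts and extracellular matrix had positive differences, with a median of 0.77, where 39.1% of all genes outside the muscle lists were positive, and none passed. Col1a1, a chain of type I collagen, was 11.99 to 12.77 in the 6 (median 12.22) and 8.46 to 12.72 in the 39 (median 11.15), a difference of 1.38 ± 0.40 (SE; adjusted p = 0.0671). Col1a1 did pass without 80 cGy replicate 8, 10 cGy replicate 8 or sham replicate 7 (adjusted p = 0.0397, 0.0446 and 0.0440). The 3 tumours with adipocyte scores under 2 gave a median of 0.84 for the same list. In the list of fibro-adipogenic cells, which lie between muscle fibres and form matrix and fat, 1 of 18 tested genes rose and the median was 0.71. That gene was Smoc2, a matrix protein, at 7.27 to 8.65 in the 6 and 4.85 to 8.14 in the 39 (difference 1.45 ± 0.30, SE; adjusted p = 0.00197). Among 24 endothelial genes, 23 were positive with a median of 0.51, and only Car4 passed. Car4, a membrane carbonic anhydrase of capillaries, read 9.95, 8.61, 9.69, 7.20, 5.54 and 8.11 in the 6 tumours and 4.46 to 7.59 in the 39 (difference 2.70 ± 0.37, SE; adjusted p = 5.7e-07). Neither passed in the 3 tumours with adipocyte scores under 2, where the difference was 1.47 for Car4 (adjusted p = 0.214) and 1.32 for Smoc2 (0.374). With the adipocyte score as a covariate Car4 passed (1.73, adjusted p = 0.00202) and Smoc2 did not (1.17, 0.211). Any Car4 RNA that came from muscle tissue itself was favoured by the split, and its share was not tested.

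No tested gene passed on the lists of heart (1 of 3 positive), tendon (10 of 15 positive) or nerve and Schwann cells (5 of 11 positive). Over all measured genes of these lists (10, 18 and 18), differences ran from -0.23 to 1.51, -1.12 to 1.31 and -1.08 to 1.34. The heart troponin Tnni3 was 5.07 to 6.24 in the 6 and 5.10 to 6.57 in the 39. Tnmd, of tendon, was 3.43 to 4.81 in the 6 and 3.27 to 6.57 in the 39, and Sox10, a Schwann-cell and mammary factor, was 5.09 to 10.69 in the 6 against 5.15 to 11.15 in the 39. Hspb6, a small heat shock protein of smooth and skeletal muscle, was the 1 gene of 13 on the smooth muscle list past the threshold. Its difference was 2.52, and 1.00% of all genes outside the muscle lists rose.

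**Figure D4:**
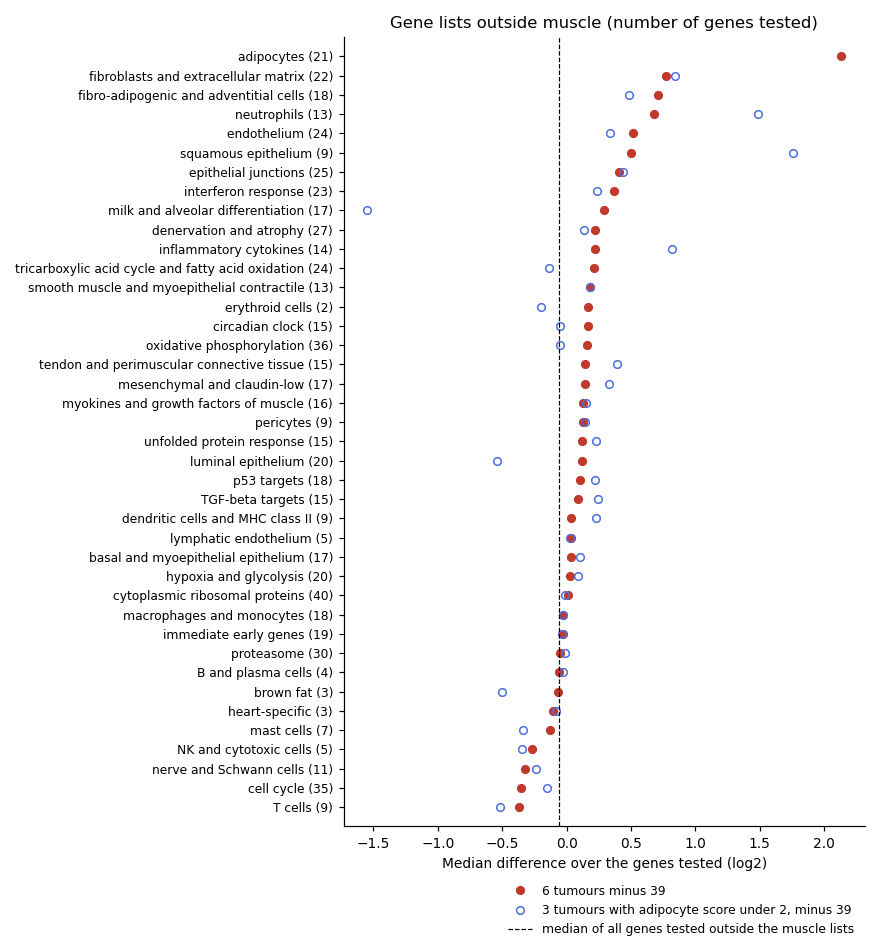
Median difference in log2 expression over the tested genes of each list outside muscle (filled: 6 tumours minus 39; open: the 3 tumours with adipocyte score under 2, minus 39), with the number of genes tested in brackets and a dashed line at the median of all genes outside the muscle lists (-0.06). Adipocytes stand at 2.13 over all 6 and have no open point, since the 3 tumours were picked by their score on these genes.

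Among p53 target genes the median difference was 0.11. Of 18 tested, 1 rose, where 1.00% of all genes outside the muscle lists rose. That gene was Ccng1, cyclin G1, which read 11.94, 11.41, 10.98, 11.16, 10.73 and 10.71 in the 6 and 9.54 to 10.99 in the 39. The groups overlapped, with 3 of the 6 above every other tumour. Its difference was 0.70 ± 0.15 (SE; adjusted p = 0.00201), and without 30 cGy replicate 1 the adjusted p was 0.0642. With the adipocyte score as a covariate Ccng1 did not pass (0.53, limma adjusted p = 0.293). It did not pass in the 3 tumours with adipocyte scores under 2 either. Rrm2b and Eda2r, other p53 targets, differed by -0.42 and 0.62 with adjusted p of 0.283 and 0.358, and Cdkn1a and Mdm2 by 0.42 and 0.03 with 0.662 and 0.960.

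Differences of proliferation genes were mostly negative. Of 35 tested cell cycle genes, 1 fell, where 0.147% of genes outside the muscle lists fell. The mean deviation of these 35 genes was -1.20 in 30 cGy replicate 1, -0.45 in sham replicate 3 and -0.31 in sham replicate 15. It was 0.002 in sham replicate 14, 0.08 in 80 cGy replicate 6 and 0.12 in 80 cGy replicate 1, so the decrease was not shared by all 6. Positive differences were found in 2 of the 35, against 39.1% of genes outside the muscle lists, and the median difference was -0.36. The median was -0.15 in the 3 tumours with adipocyte scores under 2. Ndc80, a kinetochore protein, read 5.31, 6.24, 6.44, 6.48, 6.82 and 5.68 in the 6 and 5.96 to 7.37 in the 39 (difference -0.58 ± 0.15, SE; adjusted p = 0.0305). Without 30 cGy replicate 1, sham replicate 3 or sham replicate 15 it did not pass (adjusted p = 0.412, 0.167 and 0.0671). With the adipocyte score as a covariate the difference of Ndc80 was -0.21. The other genes that fell were in no list. They included Rad18, a ubiquitin ligase of DNA damage tolerance (-0.77), Cul4b, a cullin scaffold (-0.55), Ube2k, a ubiquitin-conjugating enzyme (-0.38), and Prps2, which makes a nucleotide precursor (-0.69). Without 30 cGy replicate 1 the adjusted p-values of Rad18, Cul4b, Ube2k and Prps2 were 0.143, 0.107, 0.118 and 0.158. All 4 also missed the threshold without sham replicate 15 (0.0638, 0.0555, 0.0566 and 0.0574). The same held for Rad18 without sham replicate 3 or 14 (0.0686 and 0.0589), Prps2 without sham replicate 14 (0.114) and Ube2k without 80 cGy replicate 6 (0.0513). Myef2, a transcriptional repressor, had the largest decrease, from a median of 9.40 in the 39 to 8.28 in the 6, a mean difference of -0.996 (SE 0.23; adjusted p = 0.00597). Without sham replicate 15, in which Myef2 read 6.69, its adjusted p was 0.151. None of the 18 passed in the 3 tumours with adipocyte scores under 2, where all 18 still had negative differences. These 3 are part of the 6, so the shared direction is no separate support. Only 3 genes fell without 30 cGy replicate 1, 5 without sham replicate 15, 9 without sham replicate 14 and 10 without sham replicate 3, while 41 fell without 80 cGy replicate 1, 35 without 80 cGy replicate 6 and 32 without 10 cGy replicate 5.

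**Figure D5:**
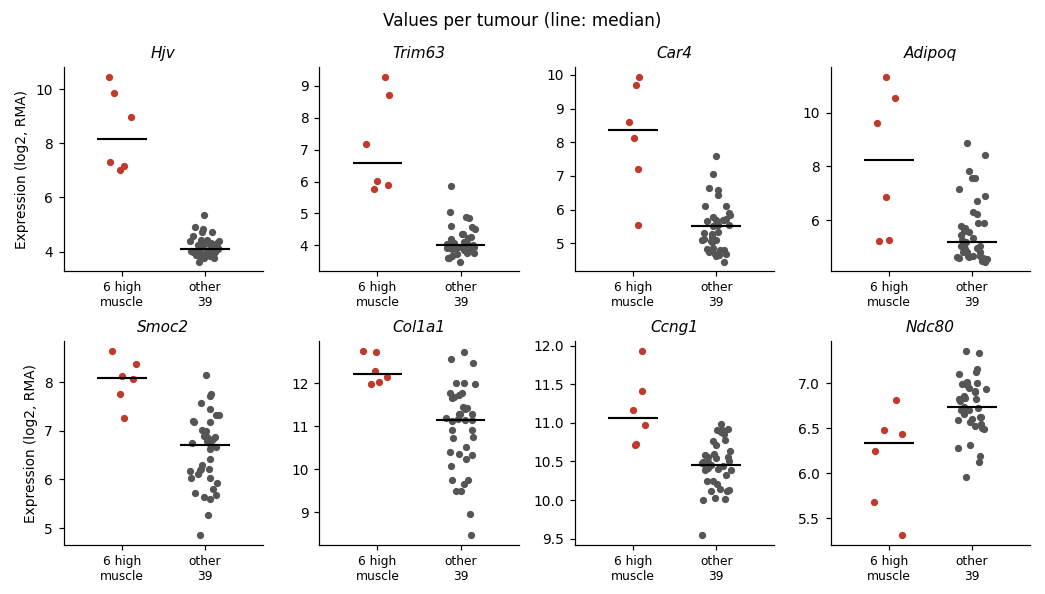
Log2 expression (y axes) of 8 genes in the 6 tumours with high muscle scores and the other 39, one point per tumour, with lines at the medians. Hjv separates the groups completely, Adipoq splits the 6 tumours, and Ccng1 and Ndc80 overlap between groups.

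No tested gene of the epithelial lists or of the T cell, macrophage, neutrophil and interferon lists passed in either direction. Krt8, a luminal keratin, had a median of 12.54 in the 6 and 12.10 in the 39, and Krt14, a basal keratin, 9.38 and 9.57. The lists of luminal epithelium (20 tested), basal epithelium (17) and epithelial junctions (25) had medians of 0.12, 0.03 and 0.40, and in the 3 tumours with adipocyte scores under 2 they were -0.54, 0.11 and 0.44. T cell genes had a median of -0.37 over 9 tested, macrophage genes -0.03 over 18, neutrophil genes 0.68 over 13 and interferon response genes 0.37 over 23. Squamous epithelium and milk genes had medians of 0.50 and 0.29 over the 6, with none past the threshold. In the same 3 tumours the medians were 1.76 for squamous epithelium, 1.49 for neutrophils and -1.55 for milk genes, again with none past the threshold. The mean deviation over measured squamous genes was 0.30 in 80 cGy replicate 1, -0.81 in 80 cGy replicate 6 and 4.23 in sham replicate 3. In the same order it was 0.87, 0.07 and 1.85 for neutrophil genes and -2.29, 0.02 and -1.36 for milk genes. These shifts were therefore not shared by all 3. Cd3e, a subunit of the T cell receptor complex, was 5.64 to 7.10 in the 6 and 5.43 to 9.09 in the 39 (difference -0.64 ± 0.34, SE; adjusted p = 0.455).

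The host groups played no part in the choice of tumours. The set held 3 of 18 tumours from sham hosts. Among irradiated hosts, 10 cGy contributed 0 of its 9 tumours, 30 cGy gave 1 out of 10, and 2 out of 8 came from 80 cGy. Sham and irradiated hosts did not differ detectably in this share (odds ratio 1.6, Fisher's exact test, two-sided p = 0.670). The difference between the 6 tumours and the rest was compared between sham and irradiated hosts with an interaction term in limma, and 0 genes passed, with 353 at an unadjusted p below 0.05 and a lowest adjusted p of 0.289. Without sham replicate 14 or without sham replicate 15, 1 gene passed.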

How the data were processed

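Values were deposited as log2 probe-set expression, which per the submitters' processing notes came from RMA and the oligo package (versions: not given in the sources used here). RMA includes quantile normalization, so a tumour rich in muscle RNA can shift the other values on its array. Of 35556 probe sets, 21218 had 1 gene symbol, 1881 several and 12457 none; each of 18820 genes was represented by its highest-mean probe set. Genes above the table median (5.67) in at least 6 tumours entered the comparison (12371), run with limma 3.58.1 (R 4.3.3), 6 tumours against 39, two-sided, with no covariates, and Benjamini-Hochberg adjustment at 0.05. The script was tested on simulated data. Errors are standard errors, and the number of arrays limits precision. The tumours, the 50 gene lists and the tests were chosen with earlier results of these data known. Named genes were the score genes, up to 5 per muscle list by size, the smallest p per other list, 12 unlisted genes each way by p, and cell type markers; others were chosen after their values were seen. Replicate numbers did not pair tumours: over 52 same-numbered pairs the correlation of deviations ran from -0.51 to 0.33, with 10 over 0.1. In 8 pairs the description codes share a stem, whose meaning the labels do not give; correlations ran from -0.11 to 0.69 (fitted 0.234), and the stem was tried as a random block.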

Additional observations from a re-analysis of the deposited data

Results flagged for a closer look

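Among 235 named genes, 14 had 1 tumour standing apart from the other 5 of the set by Dixon's criterion (gap over range above 0.625). Chance alone gives such a gap in about 1 of 20 groups. The share flagged was close to that rate, so the 14 genes are listed only as a description. In 30 cGy replicate 1, Vgll2 (a muscle transcription cofactor, 7.23) and Ogdh (a citric acid cycle enzyme, 10.83) were highest, and the cell cycle genes Nuf2 (5.79) and Mcm6 (7.37) were lowest. In sham replicate 3, the keratinization genes Krt16 (11.57) and Sprr1a (13.18) and the signalling antagonist Sostdc1 (6.69) were highest, and Krt8 (8.94) was lowest. In 80 cGy replicate 1, Nr4a2 (8.19), Cd68 (a macrophage gene, 11.03) and Mir133a-2 (3.87) were highest, and the epithelial gene Epcam (8.76) was lowest. In sham replicate 15, Atf4 (8.56) was highest and Tnc, a matrix protein, was lowest (11.42).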

How the results depend on the processing

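Counts are given as all genes higher, all lower, then outside the muscle lists higher and lower; the main counts were 194, 18, 123 and 18. With no filter on low values, 336 and 232 rose; with a filter on the mean, 93 and 58. With the adipocyte score as a covariate, 105 and 42 rose and 0 fell; with the replicate block, 88 and 33 rose and 3 fell; with array weights, 332 and 256 rose and 188 fell. Among sham hosts alone 119 and 60 rose and 4 fell, and among irradiated hosts alone 113 and 51 rose and 3 fell. With the 3 tumours of adipocyte score under 2, or equally with all tumours of adipocyte score over 2 left out, both chosen after seeing the data, 79 and 27 rose and 0 fell. The count that fell was 8 for 5 tumours against 40, 6 for the 6 against the 20 lowest scores and 30 for a slope on the score. Leaving out 1 tumour gave 126 to 246 and 60 to 174 higher, 3 to 41 lower, and 0 to 1 genes for the interaction with host irradiation, which gave 3 with no filter. With the adipocyte covariate, differences turned to -0.055 for Adipoq, -0.26 for Plin1 and -0.39 for Cyp2e1, and, among genes that had not passed, to -0.47 for Cidec and -0.32 for Lep; without the adipocyte-rich tumours, to -0.13 for Plin1 and -0.051 for Hcar1. The covariate and the choice of those tumours were built from adipocyte genes. For the other changes the cause was not tested. With tumours sharing a description stem as a random block, 11 of 268 named genes tested lost the call. Centring on the median of genes outside the muscle lists made 2 of the 268 lose the call and 3 gain it. With quantile normalization run again without the muscle lists, 15 lost the call and 1 gained it. With host group as a covariate, 18 lost it.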

Other observations

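Some genes that rose were in no list, and were chosen after their values were seen. Hoxc9, a body-position gene, differed by 1.23 ± 0.26 (SE) and Hoxc10 by 1.32, with limma adjusted p of 0.00259 and 0.00899; Hoxc10 did not pass without 30 cGy replicate 1 (0.161) or sham replicate 15 (0.0519). With the adipocyte score as a covariate neither passed (Hoxc9 0.90, adjusted p = 0.391; Hoxc10 0.69, 0.9998). Hoxc9 was 5.54 to 6.73 in the 6 tumours and 4.12 to 7.25 in the 39, so the groups overlapped. Mcpt8, a basophil protease, read 4.24, 6.15, 7.37, 8.24, 4.19 and 7.38 in 30 cGy replicate 1, sham replicates 15 and 14, 80 cGy replicates 1 and 6 and sham replicate 3 (difference 1.94, adjusted p = 0.0289). Mcpt8 did not pass without 80 cGy replicate 1, sham replicate 3, sham replicate 14 or sham replicate 15 (adjusted p = 0.166, 0.126, 0.156 and 0.0739). Ccl17, a chemokine, differed by 1.28 (adjusted p = 0.0274), with its highest value, 10.18, in sham replicate 3; without that tumour its adjusted p was 0.302, and without sham replicate 14 it was 0.106. Nppb, a heart-list gene that did not pass, was 11.36 in sham replicate 3 and at most 8.29 in the 39.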
